A study of Mus musculus with 14 samples.

Results

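Calcineurin is a calcium-activated protein phosphatase built from a catalytic A subunit, encoded by Ppp3ca or Ppp3cb, and a calcium-binding B subunit, encoded by Ppp3r1. When calcium rises, calcineurin removes phosphates from the NFAT transcription factors (Nfatc1 to Nfatc4), which then enter the nucleus. The RCAN proteins (Rcan1 to Rcan3) bind calcineurin and restrain it, and Rcan1 is itself a textbook NFAT target, which closes a feedback loop. The 10 genes described here are these 3 RCAN genes, 3 subunit genes and 4 NFAT genes, taken by symbol from an RNA table of 55433 genes and from a table of 22470 gene bodies, where each of the 10 had 1 row. The family was chosen by measured values, with the RNA difference between the conditions known (Rcan2 was among the large differences). That contrast is therefore described for the members and not tested.

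The cells were mouse tumor-derived cells of strain C57BL/6 at passages 6 to 8, with a CRISPR guide that was a control (sgControl) or targeted Nsd3 (sgNSD3). NSD3 is a methyltransferase for lysine 36 of histone H3. Total RNA was sequenced in 3 libraries per condition. H3K36me2 was profiled in 4 samples, H3K27me3 in 2 and IgG in 2, by release of MNase-cut chromatin bound by antibody. The labels name neither the tumor type nor the number of clones, and do not say that libraries came from separate cultures, so the spread between them may be technical.

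Recovered counts were 20294828 to 21863833 per RNA library, and no library stood far apart (root mean square distance to the other libraries of its condition of 0.078 to 0.113 on the log2 scale, over 9245 genes with a mean of at least 200 normalized counts). Normalized counts are read counts divided by the library's size factor. The targeted gene itself, Nsd3, had more RNA under the sgNSD3 label than in sgControl, at 21837 to 22012 normalized counts against 14402 to 14675 in sgControl (limma adjusted p = 5.86e-14, n = 3 each), so every direction below rests on the labels. Of 7 epithelial markers, 4 passed the minimum level, 3 were lower (Krt18, Krt19 and Krt14) and Epcam was at 0 in each library. Their summed level was 4263 to 4824 normalized counts in sgControl and 3067 to 3100 in the libraries labelled sgNSD3. Most of that sum was Krt19, with means of 3911 and 2676. Krt8 was not called (means of 32.6 and 29.5), and Cdh1 was below the minimum level (3.37 and 3.24). Of 5 fibroblast markers, 3 were higher and 1 lower, with sums of 362611 to 421691 and 434632 to 437585. Nearly all of that sum was Col1a1, with a mean of 380556 normalized counts in sgControl and 429867 in the libraries labelled sgNSD3. Immune markers summed to 89.8 to 106.2 and 72.9 to 81.1 normalized counts, with Cd3e and Adgre1 at 0. Most of that sum was Cd68 (means of 76.8 and 65.2), and 0 immune markers were called. Striated muscle markers summed to at most 35.5 with Actn2 at 0, and neuron markers to at most 5.22 with Snap25 at 0. Endothelial markers summed to 106.6 to 134.9 and 186 to 212.9. Nearly all of that sum was Kdr, which was called higher, with means of 114.6 and 190.1. Pecam1 (means of 6.63 and 6.69) and Cdh5 (0.319 and 0.326) were below the minimum level. Of all tested genes, 5.44% were called higher and 6.44% lower. The part of these marker differences in the results below was not tested. In bulk RNA, fewer cells of a type and less RNA per cell cannot be told apart.

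The sequences before the start sites are shown first for Rcan2 and Nfatc2, the members with the largest RNA differences, and for the downstream start of Rcan1, since its internal promoter is known for clustered NFAT sites. RefSeq windows (GRCm38.p6) were used for 8 of the 10 genes, giving 13 windows of 250 bases that end just before an annotated start. No window is reported here for Ppp3ca and Nfatc1. The sequences run 5′ to 3′ on the gene's strand, and capitals mark the NFAT core GGAAA or its reverse complement TTTCC.
Rcan1 downstream start, chr16:92400079-92400328, minus strand: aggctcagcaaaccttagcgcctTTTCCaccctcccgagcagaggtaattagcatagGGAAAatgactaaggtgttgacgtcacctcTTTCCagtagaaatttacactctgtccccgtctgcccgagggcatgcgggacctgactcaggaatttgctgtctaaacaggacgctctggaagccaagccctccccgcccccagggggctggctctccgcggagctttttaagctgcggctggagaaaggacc
Rcan2 first start, chr17:43801102-43801351, plus strand: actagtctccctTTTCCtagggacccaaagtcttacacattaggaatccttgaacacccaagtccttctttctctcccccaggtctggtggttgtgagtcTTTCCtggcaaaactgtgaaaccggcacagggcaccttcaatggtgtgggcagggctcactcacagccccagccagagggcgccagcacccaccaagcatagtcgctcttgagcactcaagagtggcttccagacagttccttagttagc
Rcan2 last start, chr17:43952749-43952998, plus strand: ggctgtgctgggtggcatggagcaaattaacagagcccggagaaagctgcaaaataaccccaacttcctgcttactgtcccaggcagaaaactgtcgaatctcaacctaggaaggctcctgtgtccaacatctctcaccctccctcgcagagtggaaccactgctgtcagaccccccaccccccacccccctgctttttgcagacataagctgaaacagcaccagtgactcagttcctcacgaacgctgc
Nfatc2 first start, chr2:168601658-168601907, minus strand: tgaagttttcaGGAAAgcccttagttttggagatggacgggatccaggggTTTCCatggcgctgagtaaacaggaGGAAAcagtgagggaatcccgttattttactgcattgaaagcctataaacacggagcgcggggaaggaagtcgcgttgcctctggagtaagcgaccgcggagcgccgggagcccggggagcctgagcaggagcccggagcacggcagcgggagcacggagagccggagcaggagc
Nfatc2 second start, chr2:168590366-168590615, minus strand: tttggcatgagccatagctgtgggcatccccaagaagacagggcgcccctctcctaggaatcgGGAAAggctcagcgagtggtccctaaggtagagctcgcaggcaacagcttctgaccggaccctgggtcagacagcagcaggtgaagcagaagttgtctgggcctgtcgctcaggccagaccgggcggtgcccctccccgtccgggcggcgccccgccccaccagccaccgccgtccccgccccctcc

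The NFAT core was common among promoters in general. At least 1 match was found in 55.6% of 32851 RefSeq windows of this length, and 3 or more in 6.39%. The downstream Rcan1 window held 3 cores, while the window before the first Rcan1 start held 0. The Rcan2 windows held 2, 0 and 0 cores in the order of the starts, and the Nfatc2 windows 3 and 1. Single windows of Ppp3cb and Nfatc4 also held 3 each, that of Rcan3 held 1, the Nfatc3 windows held 1 and 0, and that of Ppp3r1 held 0. In all, 8 of the 13 windows held a core and 4 held 3. The AP-1 motif TGANTCA, a site of the Fos and Jun factors that bind beside NFAT at many genes, was present in 6.75% of all windows and in 2 of the 13. One was the downstream Rcan1 window, at -110 to -104 bases from the start, and the other that of the last Rcan2 start, at -25 to -19. The motifs were searched on both strands and did not overlap each other in these windows. A match describes letters only, and no factor's binding was measured.

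**Figure D1:**
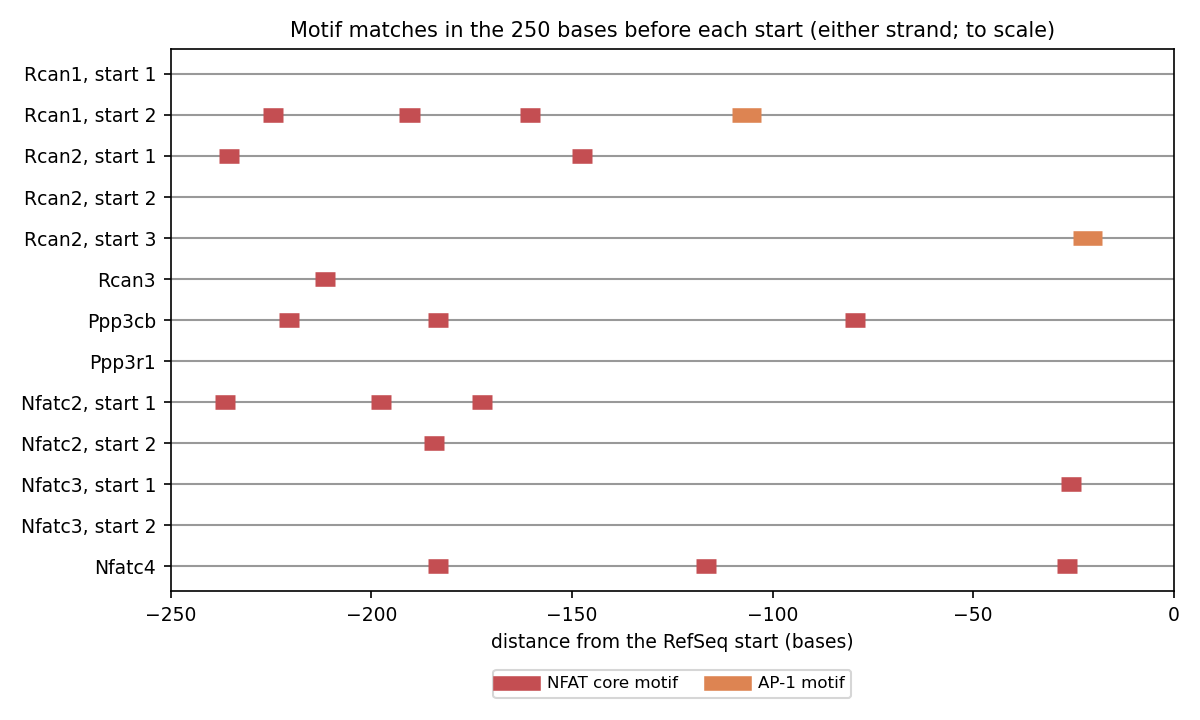
Positions of motif matches along the 250 bases before each RefSeq start of the 8 genes used (x axis, bases from the start; red bars NFAT cores, orange bars AP-1, to scale; starts numbered in the direction of transcription). The downstream Rcan1 start and the first Nfatc2 start each have 3 NFAT cores, the first Rcan2 start has 2.

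RNA of Rcan2 and Nfatc2 was 2.33-fold and 2.36-fold higher in the libraries labelled sgNSD3, and the other 8 members differed by at most 11.8% in either direction. All 10 members passed the minimum of a mean of 8 normalized counts. As a description only, 2 of the 10 (Rcan2 and Nfatc2) were called higher and 0 lower in the fit across 18263 genes (adjusted p threshold 0.05), where 5.44% of all tested genes were called higher, 6.44% lower and 11.9% in either direction. Among the 7467 tested genes with a RefSeq span of at least 20 kb, as 9 of the members have, 8.64% were called higher and 6.64% lower. Every library labelled sgNSD3 lay above every sgControl library for 3 members (Rcan2, Nfatc2 and Nfatc1) and below for 1 (Ppp3ca), where 28.5% of all tested genes did not overlap (14% above and 14.4% below). Nothing is read from these counts, because the members were chosen with this contrast known. The median log2 fold of the members was 0.06, against 0.0007 for all tested genes.

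**Figure D2:**
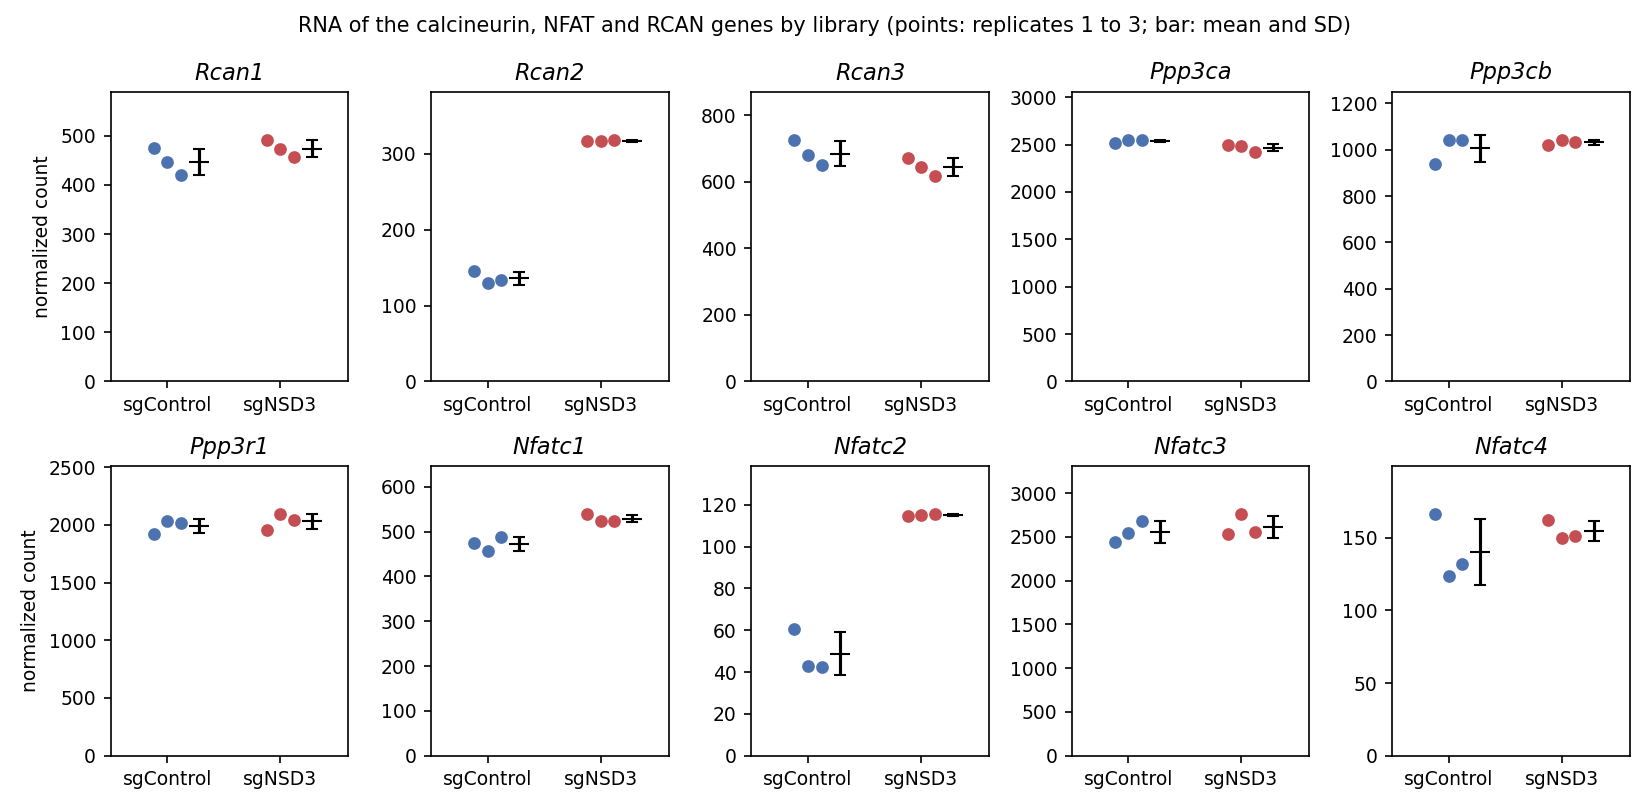
Normalized count of each member in each RNA library (y axes start at 0 and differ between genes; points are replicates 1 to 3 from left to right; bars are the mean and SD, n = 3). Rcan2 and Nfatc2 separate by condition, while the points of Rcan1, Rcan3, Ppp3cb, Ppp3r1, Nfatc3 and Nfatc4 overlap.

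Of the 3 RCAN inhibitors, Rcan2 had non-overlapping conditions, while Rcan1 and Rcan3 overlapped. Rcan2 (chromosome 17, 43801352 to 44039516, mm10), an inhibitor known from brain, heart and muscle, had 145.2, 129.2 and 133 normalized counts in the sgControl libraries, in replicate order. With the sgNSD3 label it had 316.2, 316.4 and 317.7. The conditions did not overlap, and the 3 libraries labelled sgNSD3 were nearly equal. The means were 135.8 ± 8.37 and 316.8 ± 0.802 (SD, n = 3 each), a ratio of 2.33 and a log2 fold of 1.22 ± 0.087 (SE). Counting error alone corresponds to an SD of 17.7 at the higher level, so the small spread of the 3 libraries labelled sgNSD3 understates the error of their mean.

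Rcan1 (chromosome 16, 92391951 to 92466169), the feedback inhibitor, had 474.2, 445.9 and 420.2 normalized counts in sgControl and 490.9, 473.7 and 456.5 with the sgNSD3 label. The ranges overlapped, with the highest control above the lowest library labelled sgNSD3, and the ratio of means was 1.06 (log2 fold 0.09 ± 0.063, SE). Gene-level counts add both Rcan1 starts together, so the NFAT-responsive downstream form was not measured on its own. Rcan3 (chromosome 4, 135412308 to 135433871), another inhibitor, had 724.9, 679.4 and 649.5 normalized counts in sgControl and 670.7, 643.4 and 616.8 in the libraries labelled sgNSD3. It overlapped as well, at a mean of 684.6 ± 38 against 643.7 ± 26.9 (SD, n = 3 each; log2 fold -0.09 ± 0.056, SE). Single libraries moved these small values: the log2 fold of Rcan1 was 0.04 without sgControl replicate 3 and 0.13 without sgControl replicate 1, and that of Rcan3 was -0.05 without sgControl replicate 1 and -0.06 without sgNSD3 replicate 3. The difference between RCAN genes was not tested.

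The calcineurin subunits were nearly level. Ppp3ca (chromosome 3, 136669714 to 136937727), a catalytic subunit, had 2519, 2545 and 2544 normalized counts in sgControl and 2500, 2479 and 2425 with the sgNSD3 label. The ranges did not overlap, but the means of 2536 ± 14.7 and 2468 ± 38.4 (SD, n = 3 each) were 1.03-fold apart, where counting error gives an SD of 50.5 for a single library. After scaling by library totals the Ppp3ca ranges overlapped. Ppp3cb (chromosome 14, 20499364 to 20546573), the other catalytic subunit of most tissues, had 939.1, 1041 and 1040 normalized counts in sgControl and 1021, 1040 and 1034 in the libraries labelled sgNSD3. Only sgControl replicate 1 lay apart, and without it the log2 fold went from 0.04 to -0.01. Ppp3r1 (chromosome 11, 17159298 to 17200380), the regulatory B subunit, had 1923, 2032 and 2014 normalized counts in sgControl and 1958, 2091 and 2045 in the libraries labelled sgNSD3, which overlap. Its log2 fold was 0.03 ± 0.039 (SE).

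Among the NFAT factors, Nfatc2 stood out in size but had the lowest counts of the family. Nfatc2 (chromosome 2, 168476410 to 168601657), the NFAT1 factor first known from T cells, had 60.6, 43.1 and 42.6 normalized counts in sgControl and 114.7, 115.1 and 115.4 in the libraries labelled sgNSD3. No control came near the other condition, though sgControl replicate 1 was above its fellows. The means were 48.8 ± 10.2 and 115 ± 0.32 (SD, n = 3 each), a ratio of 2.36 and a log2 fold of 1.24 ± 0.15 (SE). Counting error corresponds to an SD of 7.01 and 10.7 at these levels, so here too the library spread of the condition labelled sgNSD3 is below counting error. Over 10 other settings, each library left out in turn among them, the log2 fold of Nfatc2 was 1.16 to 1.40 and that of Rcan2 1.18 to 1.27.

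Nfatc1 (chromosome 18, 80606205 to 80713071), the NFAT2 factor of heart valve and osteoclast development, had 474.2, 457.4 and 488.2 normalized counts in sgControl. In the libraries labelled sgNSD3 it had 538.4, 524.5 and 524. The ranges did not overlap, and the ratio of means was 1.12 (473.3 ± 15.4 and 529 ± 8.2, SD, n = 3 each; log2 fold 0.16 ± 0.058, SE). Nfatc3 (chromosome 8, 106058818 to 106130537), the NFAT4 factor, had 2444, 2539 and 2687 normalized counts in sgControl and 2536, 2756 and 2551 in the libraries labelled sgNSD3. Its ranges overlapped over most of their length, and the log2 fold of 0.03 changed sign, to -0.01, without sgNSD3 replicate 2. Nfatc4 (chromosome 14, 55824795 to 55833943), the NFAT3 factor known from heart and nervous system, had 166.1, 123.4 and 131.9 normalized counts in sgControl and 162.3, 149.6 and 151.5 in the libraries labelled sgNSD3. sgControl replicate 1 was the highest of all 6 libraries for Nfatc4, and without it the ranges no longer overlapped. The log2 fold of Nfatc4 was 0.15 with all libraries, 0.27 without sgControl replicate 1 and 0.06 without sgControl replicate 2.

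sgControl replicate 1 had the highest control value for 5 members and the lowest for 4. Without it, 5 members in place of 3 had every library labelled sgNSD3 above every control, Rcan1 and Nfatc4 being added. Rcan3 joined Ppp3ca as wholly below the controls without sgControl replicate 3 or without sgNSD3 replicate 1 (2 members in place of 1). Ranges of fewer libraries separate more easily, and the share of all genes that did so was not computed. Nothing is read from these counts either. Ppp3cb overlaps an annotated noncoding gene, 1810062O18Rik, with a mean of 238.5 normalized counts, and Nfatc3 overlaps Esrp2, with 441.8. Whether counting used strand was not stated, so reads in those overlaps are uncertain. Transcript lengths were not used here, so levels are not ranked between genes.

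**Figure D3:**
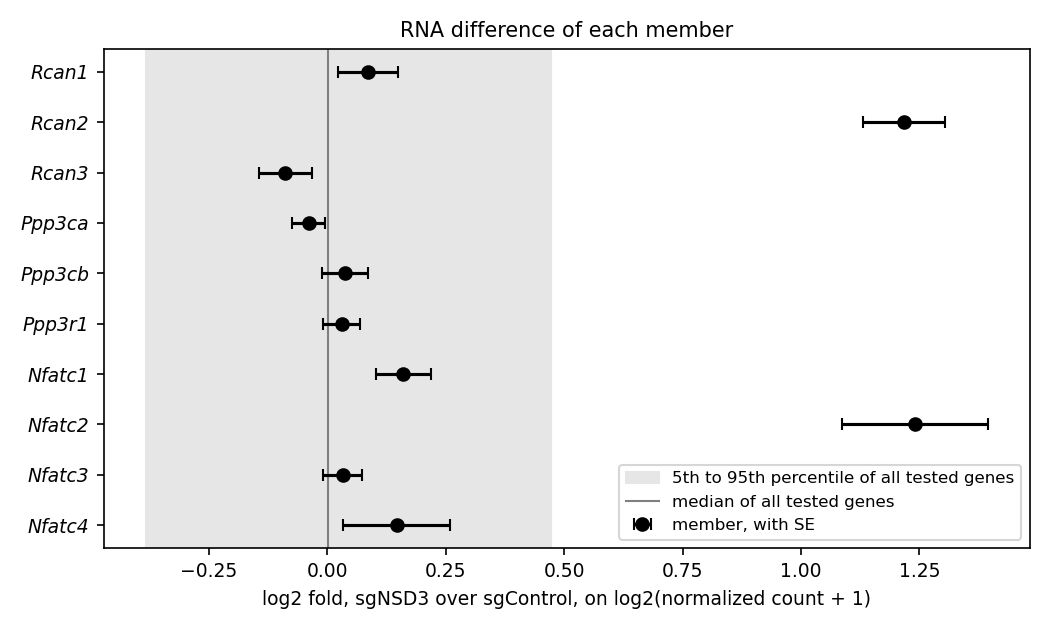
Log2 fold of each member between libraries labelled sgNSD3 and sgControl (x axis; bars are the SE from limma) over the range of the middle 90% of tested genes (grey) and their median. Rcan2 at 1.22 and Nfatc2 at 1.24 lie beyond the grey range of -0.38 to 0.47, and the other 8 members lie within it.

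The rest of the pathway was measured in 95 further genes in 5 lists, of which 75 passed the minimum level. In the libraries labelled sgNSD3, 14 of these rose and 10 fell, which is 32% of those tested against 11.9% of all genes (limma, adjusted p threshold 0.05). The pathway genes were more abundant than most (median of 1038 normalized counts against 207.5). Among genes with a mean of at least 200 normalized counts, 20 of 61 pathway genes were called (32.8%), against 16.9% of all 9245 such genes (7.04% higher and 9.9% lower). The lists were chosen with earlier results of these data known, so nothing is read from these shares, and their difference was not tested. The median log2 fold of the 75 genes was 0.003. Without sgNSD3 replicate 1, 9 rose and 6 fell, and without sgNSD3 replicate 2 or 3 the falls were 5 each. The calls over all genes dropped too, from 994 higher and 1176 lower to 645 and 707 without sgNSD3 replicate 1, 641 and 727 without replicate 2, and 658 and 774 without replicate 3.

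NFAT target genes moved both ways. Of 25 targets, 14 passed the minimum level, 5 rose (Egr2, Egr3, Nr4a1, Nr4a2 and Tox) and 2 fell (Spp1 and Ptgs2), with a median log2 fold of -0.04 against 0.0007 for all genes. For this list and those below, the shares over all tested genes were 5.44% higher and 6.44% lower. Egr3, an early growth response factor that limits T-cell activation, had 535.9, 507.2 and 533.8 normalized counts in sgControl and 775.1, 846.7 and 764.5 with the sgNSD3 label. The ranges lay far apart, and Egr3 rose 1.51-fold (log2 fold 0.60 ± 0.055, SE; limma adjusted p = 3.56e-08). Egr2, its close relative, had a mean of 733.4 ± 24 in sgControl and rose 1.19-fold to 871.5 ± 27 (SD, n = 3; limma adjusted p = 0.00109). Nr4a1, an orphan nuclear receptor, rose 1.26-fold, from 5437 ± 235 to 6841 ± 140 (SD, n = 3; limma adjusted p = 5.18e-08). Egr2, Egr3 and Nr4a1 are also known to respond to growth factors. Spp1, the secreted phosphoprotein osteopontin, had a mean of 812.3 ± 48.2 in sgControl and fell 1.29-fold to 631 ± 7.2 (SD, n = 3; limma adjusted p = 3.29e-05). Tnf, Ifng and Cd40lg, which encode immune signals, and the muscle gene Myh7 had 0 counts in each library, which allows up to 3 counts per library. Nr4a2 and Tox, both transcription regulators, rose 1.2-fold and 1.82-fold, and Ptgs2, a prostaglandin synthase, fell 1.11-fold (limma adjusted p = 0.00998, 0.00481 and 0.00245). Nr4a3, the remaining Nr4a receptor, was not called (1.04-fold, adjusted p = 0.76). Nr4a2 no longer passed when sgControl replicate 2 was left out (adjusted p = 0.091), nor when sgNSD3 replicate 1 was (0.082). These last 8 genes were named after their values were seen.

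Genes in the list of calcium entry and release, which shape the signal that activates calcineurin and include calcium pumps, moved both ways. Of 24, 21 passed the minimum level, 3 rose and 4 fell, with a median log2 fold of 0.003. The 3 rises were the phospholipases Plcb1 and Plcb4, which act below G protein-coupled receptors, and the plasma membrane calcium pump Atp2b4. Plcb4 had 564.1, 578.9 and 592.7 normalized counts in sgControl and 707.9, 714.3 and 734.2 in the libraries labelled sgNSD3, without overlap (1.24-fold, limma adjusted p = 0.000176). Plcb1 had a mean of 167.1 ± 13.1 in sgControl and rose 1.32-fold to 220.9 ± 13.8 (SD, n = 3; limma adjusted p = 0.00568). Atp2b4, whose protein removes calcium and can hold calcineurin at the membrane, rose 1.13-fold (limma adjusted p = 0.0036). The 4 falls were Plcg2, Stim2, Itpr3 and Trpc1. Plcg2, a phospholipase of immune receptor signalling, fell 1.42-fold, from 206.4 ± 21 to 145.4 ± 14.1 (SD, n = 3; limma adjusted p = 0.00176). Stim2, a calcium sensor of the endoplasmic reticulum, fell 1.1-fold, the release channel Itpr3 1.07-fold and the entry channel Trpc1 1.22-fold (limma adjusted p = 0.0172, 0.0488 and 0.0473). Those calls were fragile: Stim2 no longer passed without sgNSD3 replicate 2 or 3 (adjusted p = 0.054 and 0.12), Itpr3 without any 1 library but sgControl replicate 3 (0.081 to 0.24), and Trpc1 without any 1 library but sgControl replicate 2 (0.079 to 0.19). These last 3 were named after their values were seen.

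Among 16 kinases and retention factors that return NFAT to the cytoplasm, 15 passed the minimum level, 2 rose and 2 fell, with a median log2 fold of 0.007. Dyrk2, which phosphorylates NFAT, had 1707, 1725 and 1838 normalized counts in sgControl and 1494, 1555 and 1522 in the libraries labelled sgNSD3. It fell 1.15-fold without overlap (limma adjusted p = 0.00081). Nron, the noncoding RNA that holds NFAT in the cytoplasm, had a mean of 59.5 ± 1.49 in sgControl and rose 1.4-fold to 83.6 ± 6.9 (SD, n = 3; limma adjusted p = 0.029). The casein kinase Csnk1a1 rose 1.07-fold (limma adjusted p = 0.0208), and the scaffold Homer3, which competes with calcineurin for NFAT, fell 1.1-fold (limma adjusted p = 0.0432). The calls of Nron, Csnk1a1 and Homer3 were each lost on leaving out single libraries. Nron was lost without any 1 library but sgNSD3 replicate 2 (adjusted p of 0.058 to 0.12), Csnk1a1 without any 1 of the sgNSD3 replicates (0.072 to 0.13), and Homer3 without sgControl replicate 1 or 2 or sgNSD3 replicate 2 or 3 (0.091 to 0.2).

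Of 16 further calcineurin subunits, activators and anchors, 12 passed the minimum level, 1 rose and 2 fell, with a median log2 fold of -0.05. Akap5, an anchor that binds calcineurin at the membrane, fell 1.1-fold, from 3378 ± 189 to 3064 ± 28.9 (SD, n = 3; limma adjusted p = 0.0111). Chp1, a calcineurin B homologue known to inhibit the phosphatase, rose 1.11-fold, from 4383 ± 81.1 to 4877 ± 108 (SD, n = 3; limma adjusted p = 0.00102). Akap5 no longer passed when sgControl replicate 3, sgNSD3 replicate 1 or sgNSD3 replicate 2 was left out (adjusted p of 0.061 to 0.067).

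Of 14 genes in the list of other calcineurin substrates and Nfat5, 13 passed the minimum level, 3 rose and 0 fell, with a median log2 fold of 0.04. Crtc1 and Crtc3, coactivators of CREB that calcineurin releases into the nucleus, each rose 1.14-fold. Crtc1 went from 970.4 ± 18 to 1106 ± 32.4 normalized counts and Crtc3 from 1013 ± 15.6 to 1154 ± 70.5 (SD, n = 3 each; limma adjusted p = 0.00523 and 0.00865). Nfat5, the tonicity-responsive relative that calcineurin does not regulate, had 4581, 4825 and 4928 normalized counts in sgControl and 5312, 5264 and 5132 in the libraries labelled sgNSD3. It rose 1.1-fold without overlap (limma adjusted p = 0.00592). The calls of Crtc3 and Nfat5 were lost without sgNSD3 replicate 1 (adjusted p = 0.11 and 0.056).

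**Figure D4:**
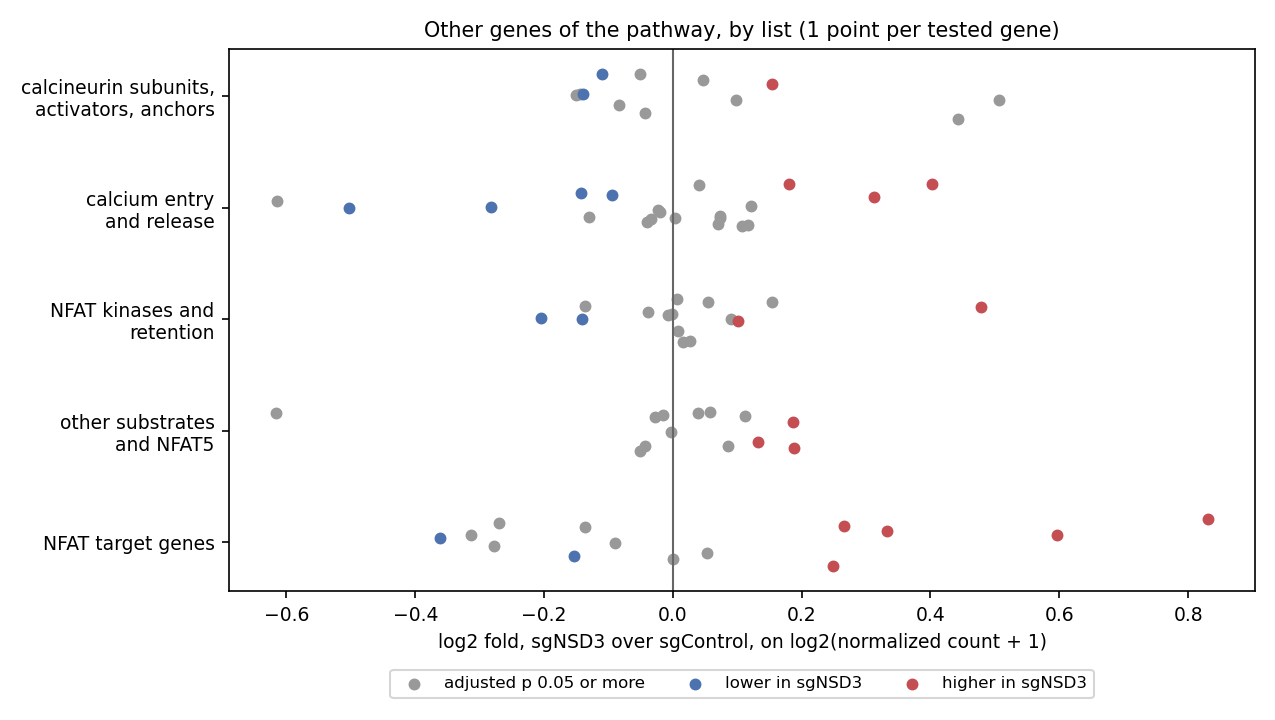
Log2 fold between libraries labelled sgNSD3 and sgControl (x axis) for the 75 tested pathway genes, 1 point per gene in 5 lists, coloured by whether limma called the gene. Called points lie on both sides of 0 in each list but that of the other substrates, where the 3 called genes were higher.

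The nearest tested genes around Rcan2 and Nfatc2 were examined after the member values were seen. To the left of Rcan2 on the chromosome, Cyp39a1 (49.9 kb away) and Slc25a27 were not called (limma adjusted p = 0.68 and 0.9). To its right, Enpp5 (39.3 kb away) was higher, at 611.2 ± 40.3 against 515.6 ± 30 normalized counts, and Enpp4 (56.8 kb away) was lower, at 880.4 ± 54.3 against 1008 ± 59.6 (SD, n = 3 each; limma adjusted p = 0.00928 and 0.0142). Beside Nfatc2, Atp9a (32.8 kb away) was higher, at 535.5 ± 18.8 against 451.4 ± 27, and Mocs3 (244.1 kb away) was higher with a limma adjusted p of 0.0445. Dpm1 and Zfp64 were not called (adjusted p = 0.27 and 0.91). Over all tested genes, 5.44% were called higher and 6.44% lower. None of these 8 neighbours differed as much as Rcan2 or Nfatc2, the largest being Mocs3 with 23.9%.

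H3K36me2 marks broad domains in and between genes and is the mark NSD3 is known to lay down, while H3K27me3 marks Polycomb-silenced genes. The authors' deposited table holds 1 signed score per gene body in each of 3 columns, 2 for H3K36me2 and 1 for H3K27me3. Neither the libraries behind a column nor their order is stated, so no direction between conditions was read from the scores and no test was made.

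In the authors' deposited table, Rcan2 had H3K36me2 scores of 0.244 and 0.353, at percentiles 98.8 and 98.1 of 22470 gene bodies. No other member was above percentile 90 in both columns. In the authors' deposited table Nfatc4 had 0.118 and 0.332 (percentiles 77.7 and 97.2), and Rcan1 0.0652 and 0.21 (47.8 and 82.6). Nfatc2, whose RNA ratio resembled that of Rcan2, had 0.129 and 0.0545 in the authors' deposited table, at percentiles 81.3 and 19.9. The percentiles of Rcan2 and Nfatc2 were thus far apart in the second column and nearer in the first.

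The other 6 members were above percentile 50 in the first H3K36me2 column of the authors' deposited table and below it in the second. In the authors' deposited table, Nfatc1 had H3K36me2 scores of 0.14 and 0.1 (percentiles 83.7 and 39.5), Ppp3r1 0.13 and 0.104 (82.8 and 40.7) and Nfatc3 0.103 and 0.0817 (70.4 and 31.6). Ppp3cb had 0.101 and 0.0426 (66 and 16.3), Ppp3ca 0.0773 and 0.07 (53 and 25.5) and Rcan3 0.0773 and 0.0623 (52.4 and 23.1) in the authors' deposited table. All 10 members were above 0 in both columns, as were 89.4% and 92.4% of all gene bodies in the authors' deposited table. Against the median gene body of the authors' deposited table, 9 of the 10 were higher in the first column and 3 in the second.

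For H3K27me3, the authors' deposited table gave 9 of the 10 members a score below 0 and Nfatc1 a score of 0.116, at percentile 92.3. Over all gene bodies of the authors' deposited table, 31.5% were above 0 and the median was -0.0258. The lowest members in the authors' deposited table were Nfatc2 (-0.0972), Nfatc4 (-0.092), Ppp3ca (-0.0794), Rcan2 (-0.0759) and Ppp3r1 (-0.0705), at percentiles 11.2 to 19.1. Nfatc3 (-0.0472), Rcan1 (-0.0288), Rcan3 (-0.0258) and Ppp3cb (-0.0248) lay between percentiles 34.9 and 53.1 of the authors' deposited table.

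**Figure D5:**
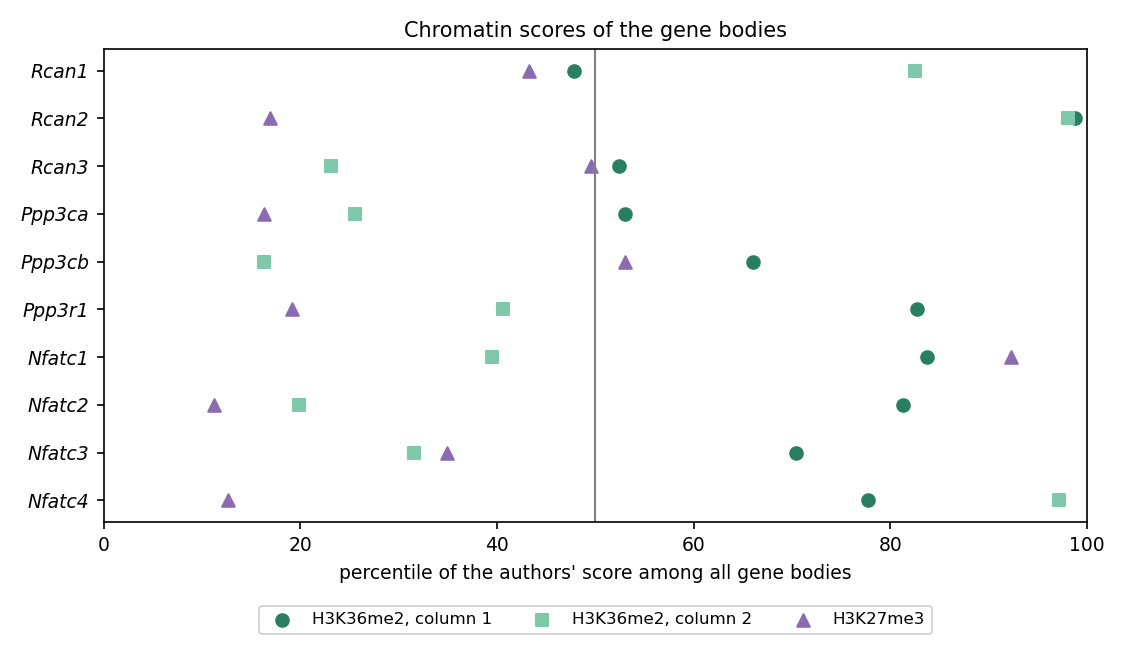
Percentile of the authors' deposited score of each member's gene body among 22470 gene bodies (x axis) for the H3K36me2 columns (circles and squares) and H3K27me3 (triangles), with the 50th percentile as a line. Rcan2 is at percentiles 98.8 and 98.1 in the H3K36me2 columns, and Nfatc1 is at 92.3 for H3K27me3.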

How the data were processed

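The 10 members and the lists were chosen with earlier results of these data known. RNA values were deposited by the authors as DESeq2-normalized expression on a log2 scale. The tools named are HISAT2, featureCounts and DESeq2, with the mm10 build, per the submitters' processing notes. A gene without reads sits at 8.45. Inverting the variance-stabilising transform, 100% of values above that floor were whole multiples (tolerance 0.05) of a step particular to each library, from which counts and size factors followed. The chromatin scores were deposited by the authors per gene body, per the file headers, with no stated derivation. Every RNA value column was mapped to a sample, while the chromatin columns were mapped to a mark only.

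The RNA contrast was fitted by lmFit and eBayes with trend (limma 3.58.1, R 4.3.3) on the deposited log2 values of 18263 genes with a mean of at least 8 normalized counts, with Benjamini-Hochberg adjustment over all of them and a threshold of 0.05. Each adjusted p comes from that fit, unless another setting or a left-out library is named with it. Folds are ratios of mean normalized counts. For log2 folds with SE, limma was run on log2(normalized count + 1), a scale on which changes of low genes are understated. The deposited scale, which gave the calls and the naming order, understates them more. Nfatc2 differed by 0.283 on the deposited scale and by 1.24 on the other. Of each pathway list, up to 4 called genes with the largest change on the deposited scale were named, except 1 that is not reported here. RNA replicate numbers follow the sample titles, and the sgNSD3 columns bear other numbers. RefSeq (GRCm38.p6) gave positions and promoter windows. The planned levels per transcript length were not computed. The comparisons by gene span and by level, and the neighbouring genes, were chosen after seeing the data. IgG samples were not analysed here.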

Additional observations from a re-analysis of the deposited data

How the results depend on the processing

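Under 10 other settings (scale, pseudocount, filter on low values, quantile or library total scaling, variance model, replicate block) the pathway genes called higher numbered 13 to 14 and lower 7 to 11. All genes called numbered 833 to 1119 higher and 995 to 1333 lower. On leaving out 1 library at a time, pathway genes called numbered 9 to 14 higher and 5 to 10 lower, and all genes 641 to 993 higher and 707 to 1164 lower. The counts of all genes moved by over 1.5-fold without sgNSD3 replicate 1 (645 higher, 707 lower), 2 (641 and 727) or 3 (658 and 774). Members wholly above the controls numbered 3 to 5, and wholly below 1 to 2, on leaving out 1 library. The matching share over all genes was not computed. With library total scaling, 0 members lay wholly below. The log2 fold of Ppp3ca was -0.02 under quantile normalization, against -0.04. With each member's percentile averaged over the 2 H3K36me2 columns, the median of the members was 56.3 among all gene bodies and 51.8 among those with tested RNA. The columns differed, with 9 members above the median gene body in the first and 3 in the second. Csnk1a1 and Homer3 were also lost under library total scaling (adjusted p = 0.066 and 0.06) and without the variance trend (0.052 and 0.059), and Homer3 under quantile normalization (0.073) and without a filter (0.072). Itpr3 was lost under 8 of the 10 settings (adjusted p of 0.051 to 0.19), and Trpc1 without a filter (0.062), under quantile normalization (0.058) and under the block on column numbers (0.051). The other alternatives of the named pathway genes that were called kept their direction. Of the members, Ppp3cb and Nfatc3 changed sign on leaving out 1 library, each to a log2 fold of -0.01. The cause of these changes was not tested.

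Correlations did not show pairing of the libraries by shared replicate numbers. For same-numbered libraries, deviations from the condition means correlated at -0.013 to 0.046 by title number and -0.066 to -0.0065 by column number. With 3 libraries per condition this cannot exclude pairing. With a replicate block on title numbers, 14 pathway genes were higher and 11 lower, and 1119 and 1333 of all genes. With the block on column numbers, 14 and 7 pathway genes and 919 and 1086 of all genes were called, and Homer3 was not (adjusted p = 0.066). The alternative with other gene lengths was not run, since no levels per length were computed. Depth limits Nfatc2 most, with 42 to 120 recovered counts per library.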
